A study of Mus musculus with 9 samples.

Results

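The 39 genes described here encode the nucleolar machinery that makes ribosomes: the core proteins of small nucleolar ribonucleoproteins (snoRNPs), RNA polymerase I and its factors, the small subunit processome, the 60S assembly factors, and the abundant nucleolar proteins nucleolin, nucleophosmin and Mybbp1a. They were chosen as a list of mouse symbols, each mapped to its Ensembl gene identifier, and all 39 were found among the 55335 genes of the count files. The cells were D2A1-d, a mouse breast carcinoma line, transduced with a hairpin against Med1 (shMed1 #2 or shMed1 #4) or with a non-targeting control (NTC), and RNA was sequenced from 3 libraries of each group, 9 in all. Med1 is a gene for one subunit of Mediator, through which DNA-bound factors reach RNA polymerase II. All groups were grown in the same medium and carried a transduced construct, and the labels give no other treatment. The labels call the libraries biological replicates without naming separate transductions, clones or cultures, so the p-values measure the spread between these libraries, which may be technical. Each hairpin is a partial knockdown of Med1 in 1 cell line.

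Ribosome production starts in the nucleolus, where RNA polymerase I transcribes the rRNA precursor from the repeated rDNA genes. Box C/D snoRNPs guide 2'-O-methylation and box H/ACA snoRNPs guide pseudouridylation of that precursor, while the U3 snoRNP and the small subunit processome fold and cleave it into the 18S branch and other factors build the 60S branch. In tumour cells this machinery is known for tracking growth, and many of its genes are textbook targets of the transcription factor MYC.

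Med1 was measured first, as the check of the labels. It had 22.1, 25.2 and 24.7 CPM (counts scaled to the library total, adjusted by TMM factors) in shMed1 #2 libraries, 25.02, 26.6 and 25.5 CPM in shMed1 #4 libraries, against 85.6, 87.5 and 79.8 CPM in NTC libraries. The log2 fold change was -1.81 (SE 0.075) with shMed1 #2 and -1.71 (SE 0.074) with shMed1 #4, so the libraries of both hairpins lay below every NTC library. Library totals were 8123918 to 8879982 counts. Of the epithelial markers, Krt18 had 152 to 440 counts per library and Krt8 13 to 58, whereas Epcam had 0 counts in every library and Cdh1 at most 2. Leukocyte and endothelial markers other than Csf1r (90 to 135 counts) had at most 6 counts. The summed level of the 7 epithelial markers was 19.5 to 22.8 CPM in shMed1 #2 libraries and 41.4 to 51.9 CPM in shMed1 #4 libraries, against 57.9 to 59.2 CPM in NTC libraries. Most of that sum was Krt18. Krt7, near the floor, went the other way with shMed1 #2, with 10, 5 and 7 counts against 1, 2 and 3 in NTC libraries. The summed level of the 5 fibroblast markers was 52.8 to 55.0 CPM with shMed1 #2 and 68.6 to 73.7 CPM with shMed1 #4, against 97.1 to 104 CPM with NTC. Whether these shifts have a part in the values of the nucleolar genes was not tested.

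Every nucleolar gene was well covered, with 277 to 15334 counts per library, and all 39 were among the 13611 genes tested. With shMed1 #2, 21 of the 39 rose and 0 fell, where 21.8% of all genes tested were called higher and 21.9% lower (edgeR's quasi-likelihood test, Benjamini-Hochberg adjusted p under 0.05). The count of 0 was also 0 at an unadjusted p under 0.05 and with DESeq2. With shMed1 #4, 13 rose and 3 fell, where the calls over all genes were 14.0% and 14.1%. The count of 13 dropped to 7 without NTC replicate 1, to 7 without NTC replicate 3 and to 8 without shMed1 #4 replicate 2, and the count of 3 dropped to 1 without NTC replicate 2 or shMed1 #4 replicate 1. On the mean of both hairpins against NTC, 20 rose and 1 fell, where 19.7% and 20.2% of all genes did. The 1 that fell was Npm1, at -0.096 (adjusted p = 0.0177, SE 0.034). That call was lost without shMed1 #2 replicate 1 or NTC replicates 1 or 3 (adjusted p 0.0936 to 0.104 there, 7.09e-04 to 0.104 over the 17 alternatives). Background depends on abundance: among the 6379 genes whose mean was 5 log2 CPM or more, which include all 39, 35.3% were called higher and 21.4% lower with shMed1 #2, 22.7% and 16.1% with shMed1 #4, and 32.2% and 20.2% on the mean. The changes were small. The log2 fold changes spanned -0.10 to 0.46 with shMed1 #2 (median 0.17) and -0.24 to 0.24 with shMed1 #4 (median 0.076), beside medians of -0.0035 and 0.00086 over all genes tested and of 0.057 and 0.028 over the abundant ones. No nucleolar gene reached a log2 fold change of 0.5, 12 reached 0.25 with shMed1 #2 and 0 did with shMed1 #4. The shMed1 #2 libraries lay above all NTC libraries for 21 genes and below them for 0, where 25.7% and 25.8% of all genes did so. The shMed1 #4 libraries lay above for 21 and below for 3, where 19.3% and 19.6% of all genes did so. Both comparisons share the NTC libraries, and for neither were such range shares computed over the abundant genes. In bulk RNA, fewer cells of a kind and less RNA per cell cannot be told apart, and these values are shares of each library's counts rather than amounts per cell.

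**Figure D1:**
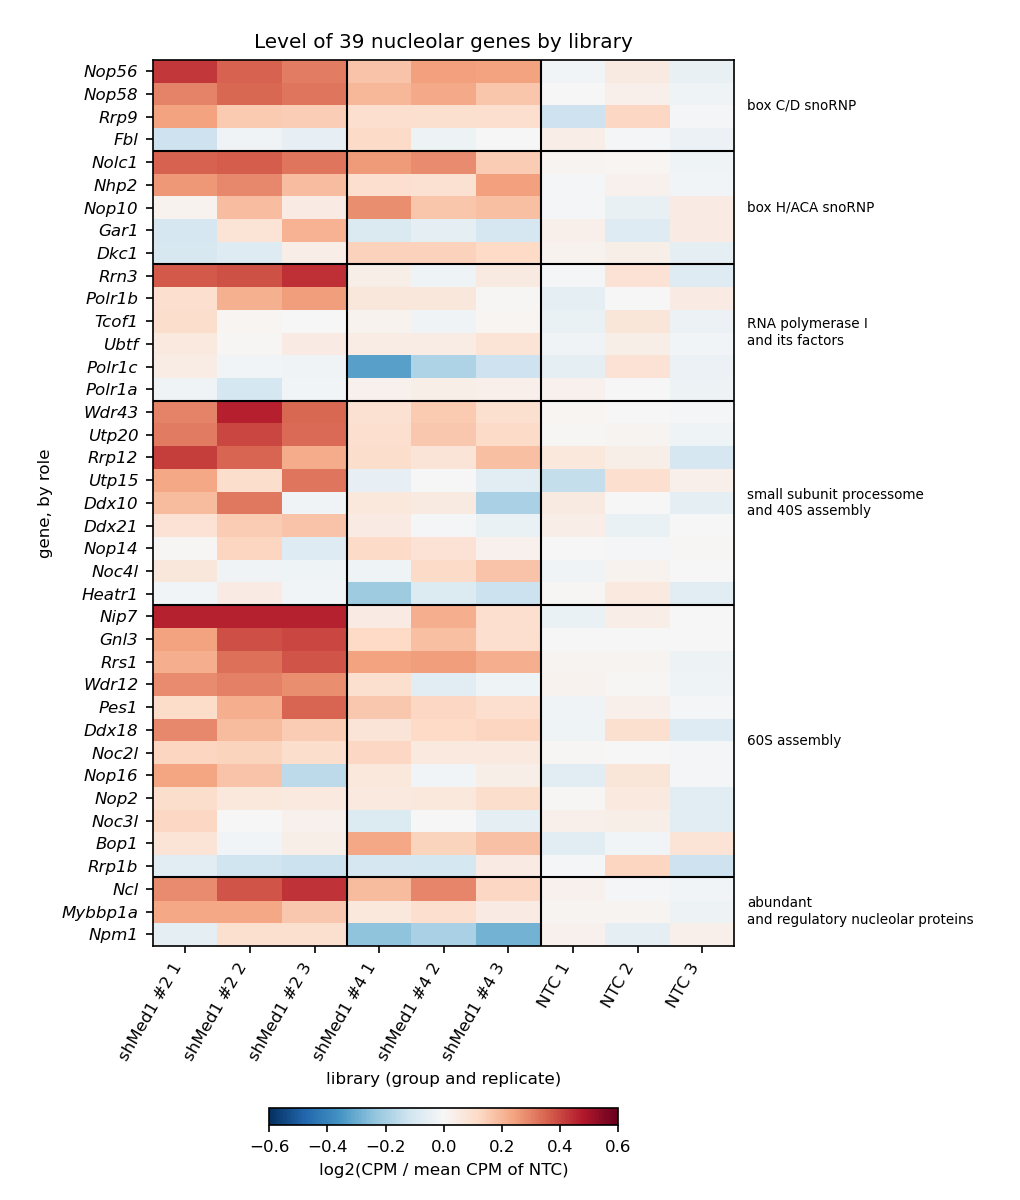
Level of each of the 39 nucleolar genes in each library as log2 of its CPM over the mean CPM of the 3 NTC libraries; columns are libraries, rows are genes grouped by role and ordered within a role by the change with shMed1 #2. Nip7 is red in all 3 shMed1 #2 libraries, and Npm1 is blue in all 3 shMed1 #4 libraries.

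Taken as a sum, the 39 genes had 9213 to 9543 CPM in shMed1 #2 libraries and 8365 to 8695 CPM in shMed1 #4 libraries, against 8163 to 8284 CPM in NTC libraries, so that no ranges overlapped. Ncl and Npm1 contribute most to that sum in CPM, and without them the sums were 6003 to 6091 CPM with shMed1 #2 and 5593 to 5661 CPM with shMed1 #4, against 5194 to 5390 CPM with NTC. By gene, 10 were called higher with both hairpins (10.4% of all genes tested and 18.1% of the abundant ones were): Nop56, Nop58, Nhp2, Nolc1, Wdr43, Utp20, Pes1, Rrs1, Gnl3 and Ncl. Of these 10, the 5 genes Nop56, Nop58, Nolc1, Rrs1 and Ncl were the ones called with both hairpins in every alternative at an adjusted p of 0.05. The count was 5 without NTC replicate 1, without NTC replicate 3, with upper quartile scaling, with library size alone and with DESeq2, and it was 6 without shMed1 #4 replicate 2. Another 11 were called higher with shMed1 #2 alone, namely Rrp9, Polr1b, Rrn3, Utp15, Rrp12, Ddx21, Wdr12, Ddx18, Nip7, Noc2l and Mybbp1a. None of the 39 was called lower with both, where 10.1% of all genes tested and 11.2% of the abundant ones were. Called higher with shMed1 #4 alone were Dkc1, Nop10 and Bop1, and called lower with it alone were Polr1c, Heatr1 and Npm1. For calls with a single hairpin alone, the share over all genes was not computed, so these counts cannot be weighed against a background. The 12 without a call in any comparison were Fbl, Gar1, Polr1a, Ubtf, Tcof1, Nop14, Noc4l, Ddx10, Nop2, Nop16, Rrp1b and Noc3l. A call with one hairpin and not the other does not show that the hairpins differ. That difference was tested separately and is given after the groups by role.

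**Figure D2:**
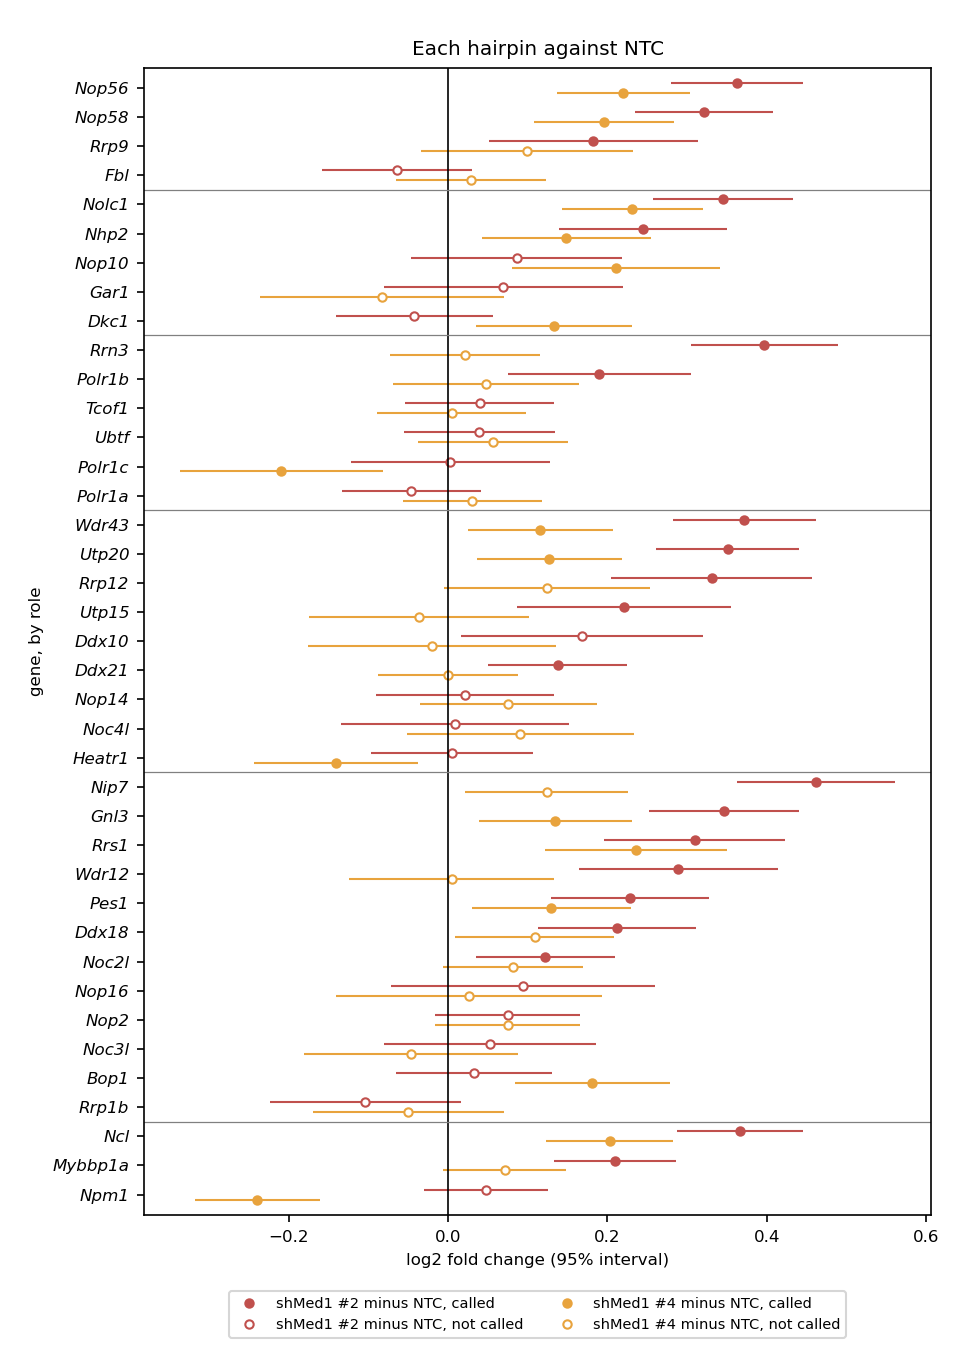
Log2 fold change with its 95% interval for each nucleolar gene, shMed1 #2 minus NTC in red and shMed1 #4 minus NTC in yellow; filled points passed an adjusted p of 0.05 and open points did not. The shMed1 #2 values of Nip7, Rrn3 and Wdr43 lie farthest right, and the shMed1 #4 value of Npm1 lies farthest left.

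Promoter sequence is shown for the nucleolar genes that carry CACGTG, the palindromic E-box that MYC and MAX bind as a pair in vitro and that other factors such as USF also bind. The window searched ran from 250 bases before to 50 bases after the RefSeq start on GRCm38.p6. CACGTG reads the same on both strands and overlaps no other motif searched. Of the 39 genes, 33 had a promoter in the RefSeq table, and 6 of these 33 (18.2%) held the motif, against 8.09% of the 27025 genes in the table. In the shorter window from 100 bases before to 50 after the start, shown here with CACGTG in capitals, the same 6 held it, against 5.00% of genes.
Pes1: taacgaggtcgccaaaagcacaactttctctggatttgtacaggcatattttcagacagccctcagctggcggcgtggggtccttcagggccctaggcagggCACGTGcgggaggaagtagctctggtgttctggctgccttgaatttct
Utp20: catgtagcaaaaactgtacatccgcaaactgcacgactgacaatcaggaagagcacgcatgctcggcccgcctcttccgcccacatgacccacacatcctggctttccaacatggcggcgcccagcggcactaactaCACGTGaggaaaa
Wdr43: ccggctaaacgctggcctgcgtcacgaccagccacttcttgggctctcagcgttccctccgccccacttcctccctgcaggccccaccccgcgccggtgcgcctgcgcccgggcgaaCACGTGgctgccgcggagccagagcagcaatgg
Rrn3: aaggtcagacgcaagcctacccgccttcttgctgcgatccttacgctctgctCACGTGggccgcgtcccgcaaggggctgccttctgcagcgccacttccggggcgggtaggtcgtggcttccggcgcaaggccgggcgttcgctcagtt
Mybbp1a: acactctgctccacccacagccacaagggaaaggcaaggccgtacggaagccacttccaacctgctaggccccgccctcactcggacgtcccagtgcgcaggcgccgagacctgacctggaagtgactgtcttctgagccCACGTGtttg
Nop2: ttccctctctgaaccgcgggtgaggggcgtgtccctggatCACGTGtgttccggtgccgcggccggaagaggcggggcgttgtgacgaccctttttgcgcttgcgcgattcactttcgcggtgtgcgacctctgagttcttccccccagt
Each is written 5' to 3' on the gene's own strand. The windows are chr11:3963875-3964024 for Pes1, chr10:88826765-88826914 on the minus strand for Utp20, chr17:71616115-71616264 for Wdr43, chr16:13780599-13780748 for Rrn3, chr11:72441227-72441376 for Mybbp1a and chr6:125131783-125131932 for Nop2, the other 5 being on the plus strand. In Nop2 the motif begins 60 bases before the start, and in Rrn3 48 bases before it with a further copy 215 bases before it. In Pes1, Wdr43, Utp20 and Mybbp1a it begins at bases 3, 18, 38 and 41 of the transcript. Of these 6, Pes1, Utp20 and Wdr43 were called higher with both hairpins, Rrn3 and Mybbp1a with shMed1 #2 alone, and Nop2 with neither. The 3 of 6 called higher with both compare with 10 of all 39 (25.6%), and the 2 of 6 called with shMed1 #2 alone with 11 of 39 (28.2%). That base of 39 holds the 6 themselves and also genes without a promoter in the RefSeq table, so it is wider than the 33 searched. The count of 3 became 0 without NTC replicate 1, NTC replicate 3 or shMed1 #4 replicate 2, and with DESeq2, upper quartile scaling, library size alone or no filter on low counts. Without NTC replicate 2 or shMed1 #4 replicate 1 it was 1. A match is a description of the letters and was not tested against the expression values.

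Of the box C/D snoRNP proteins, which carry the 2'-O-methylation guides, the paired scaffold proteins Nop56 and Nop58 rose with both hairpins, while the methyltransferase fibrillarin (Fbl) gave no call. Nop56 had 497, 473 and 458 CPM in shMed1 #2 libraries, 417, 439 and 437 CPM in shMed1 #4 libraries, against 366, 385 and 359 CPM in NTC libraries. The 3 groups did not overlap, with shMed1 #4 between the other two, and the log2 fold changes were 0.36 (adjusted p = 5.79e-12, SE 0.042) with shMed1 #2 and 0.22 (adjusted p = 1.55e-05, SE 0.042) with shMed1 #4. Nop58 had 246, 255 and 250.4 CPM in shMed1 #2 libraries, 229.9, 235 and 225 CPM in shMed1 #4 libraries, against 200.1, 205 and 197 CPM in NTC libraries. Its groups were again separate and in the same order, with log2 fold changes of 0.32 (adjusted p = 1.96e-09, SE 0.044) and 0.20 (adjusted p = 2.59e-04, SE 0.044). Fbl had 158, 169 and 166 CPM in shMed1 #2 libraries, 186, 168 and 172 CPM in shMed1 #4 libraries, against 177, 171 and 168 CPM in NTC libraries, and the libraries of all groups overlapped. Its log2 fold change was -0.064 (adjusted p = 0.281, SE 0.047) with shMed1 #2 and 0.029 (adjusted p = 0.704, SE 0.047) with shMed1 #4, with 95% intervals of -0.16 to 0.030 and -0.065 to 0.12. Fbl was called lower with shMed1 #2 with library size alone (adjusted p 0.0454 there, 0.0454 to 0.661 over the 18 alternatives). Rrp9, the protein specific to the U3 snoRNP, rose with shMed1 #2 by 0.18 (adjusted p = 0.0189, SE 0.066) and gave 0.099 (adjusted p = 0.287) with shMed1 #4. Its call with shMed1 #2 was lost without shMed1 #2 replicate 1 or NTC replicates 1 or 3, and also with DESeq2, upper quartile scaling or library size alone (adjusted p 0.0519 to 0.173 there, 0.00518 to 0.173 over the 18 alternatives).

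Among the box H/ACA proteins, which carry the pseudouridylation guides, the chaperone Nolc1 and the core protein Nhp2 rose with both hairpins. The pseudouridine synthase dyskerin (Dkc1) and the small core protein Nop10 rose with shMed1 #4 and gave no call with shMed1 #2. Nolc1, which escorts snoRNPs between nucleolus and Cajal bodies, had 259.7, 261 and 254 CPM in shMed1 #2 libraries, 243, 247 and 225 CPM in shMed1 #4 libraries, against 205, 205 and 199 CPM in NTC libraries. All libraries of both hairpins lay above all NTC libraries, and the log2 fold changes were 0.35 (adjusted p = 2.76e-10, SE 0.044) and 0.23 (adjusted p = 2.03e-05, SE 0.044) with shMed1 #2 and shMed1 #4. Dkc1 had 126, 128 and 139 CPM in shMed1 #2 libraries, 149, 149 and 147 CPM in shMed1 #4 libraries, against 137, 139 and 129.8 CPM in NTC libraries. Here the 3 shMed1 #4 libraries were above all the others, and the shMed1 #2 and NTC libraries overlapped. The log2 fold change of Dkc1 was -0.042 (adjusted p = 0.519, SE 0.050) with shMed1 #2 and 0.13 (adjusted p = 0.0331, SE 0.049) with shMed1 #4. The call was lost without shMed1 #4 replicates 1 or 2 or NTC replicates 1 or 3, and also with DESeq2, no filter on low counts, upper quartile scaling or library size alone (adjusted p 0.0519 to 0.180 there, 0.0316 to 0.180 over the 18 alternatives). Nop10 had 56.4, 63.2 and 57.6 CPM in shMed1 #2 libraries, 67.6, 62.5 and 63.1 CPM in shMed1 #4 libraries, against 55.3, 54.0 and 57.7 CPM in NTC libraries, and its shMed1 #4 libraries lay above the NTC libraries. Nop10 gave 0.086 (adjusted p = 0.305, SE 0.066) with shMed1 #2 and 0.21 (adjusted p = 0.010, SE 0.066) with shMed1 #4. The call of Nop10 was lost without shMed1 #4 replicate 1 or NTC replicate 2 (adjusted p 0.0546 to 0.0758 there, 0.00961 to 0.0758 over the 18 alternatives). Nhp2 rose by 0.24 (adjusted p = 7.33e-05, SE 0.053) and 0.15 (adjusted p = 0.0277, SE 0.053). The second of these calls was lost without shMed1 #4 replicate 3 or NTC replicates 1 or 3, and also with DESeq2, upper quartile scaling or library size alone (adjusted p 0.0533 to 0.223 there, 0.0194 to 0.223 over the 18 alternatives). Gar1, the remaining core protein, gave 0.069 (adjusted p = 0.485) with shMed1 #2 and -0.083 (adjusted p = 0.464) with shMed1 #4.

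Of the 6 genes of RNA polymerase I and its factors, 2 rose with shMed1 #2 and 1 fell with shMed1 #4, and the median log2 fold changes were 0.039 and 0.026. These shares, 33.3% and 16.7%, are near those of the abundant genes, of which 35.3% were called higher with shMed1 #2 and 16.1% lower with shMed1 #4. Rrn3, the initiation factor (TIF-IA in mammals) that brings the polymerase to the rDNA promoter, had 213, 215 and 224 CPM in shMed1 #2 libraries, 169, 162 and 171 CPM in shMed1 #4 libraries, against 164, 175 and 157 CPM in NTC libraries. The 3 shMed1 #2 libraries stood above all others, and the shMed1 #4 and NTC libraries overlapped. Its log2 fold change was 0.40 (adjusted p = 1.15e-11, SE 0.046) with shMed1 #2, 31.7% higher on the linear scale, and 0.021 (adjusted p = 0.788, SE 0.047) with shMed1 #4. The second-largest subunit Polr1b rose with shMed1 #2 by 0.19 (adjusted p = 0.00483, SE 0.058) and gave 0.047 (adjusted p = 0.599) with shMed1 #4. The subunit Polr1c, which RNA polymerases I and III share, had 72.1, 69.0 and 68.8 CPM in shMed1 #2 libraries, 55.7, 61.4 and 64.0 CPM in shMed1 #4 libraries, against 67.0, 74.2 and 68.2 CPM in NTC libraries. All shMed1 #4 libraries were below all NTC and shMed1 #2 libraries. Polr1c fell by 0.21 on the log2 scale with shMed1 #4 (SE 0.064, adjusted p = 0.00838), and gave 0.0029 (adjusted p = 0.976, SE 0.063) with shMed1 #2. The fall was no longer called without shMed1 #4 replicate 1 or NTC replicate 2, and also with DESeq2 (adjusted p 0.0501 to 0.109 there, 0.00314 to 0.109 over the 18 alternatives). The catalytic subunit Polr1a, the rDNA-binding factor Ubtf and treacle (Tcof1), which binds both polymerase I and snoRNPs, gave log2 fold changes of -0.046, 0.039 and 0.039 with shMed1 #2 and 0.030, 0.056 and 0.0042 with shMed1 #4, all without a call.

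Of 9 small subunit processome and 40S assembly genes, 5 rose and 0 fell with shMed1 #2, and 2 rose and 1 fell with shMed1 #4. The 55.6% called higher with shMed1 #2 lie beside 35.3% of the abundant genes. With shMed1 #4, 22.2% higher and 11.1% lower lie beside 22.7% and 16.1%, so those counts are not above the background. Wdr43, a processome protein (Utp5 in yeast), had 243, 274 and 252 CPM in shMed1 #2 libraries, 211, 221 and 212 CPM in shMed1 #4 libraries, against 199.8, 198 and 196 CPM in NTC libraries. Its groups were fully separate, shMed1 #4 lying between shMed1 #2 and NTC, and the log2 fold change was 0.37 (adjusted p = 4.24e-11, SE 0.045) with shMed1 #2. With shMed1 #4 it was 0.12 (adjusted p = 0.0472, SE 0.046). For Wdr43 that call was lost without shMed1 #2 replicate 3, shMed1 #4 replicates 1 or 2 or NTC replicates 1, 2 or 3, and also with DESeq2, no filter on low counts, a stricter filter, upper quartile scaling, library size alone, only the groups compared fitted or no robust option (adjusted p 0.0535 to 0.172 there, 0.0447 to 0.172 over the 18 alternatives). With the replicate number as a block Wdr43 was not called either (adjusted p 0.0521). Utp20, a large scaffold of the processome, had 209.9, 223 and 214 CPM in shMed1 #2 libraries, 181, 189 and 183 CPM in shMed1 #4 libraries, against 169.6, 171 and 166 CPM in NTC libraries. Those groups were separate in the same order. Utp20 rose by 0.35 (adjusted p = 3.22e-10, SE 0.045) with shMed1 #2 and by 0.13 (adjusted p = 0.0280, SE 0.046) with shMed1 #4. Its shMed1 #4 call was lost without shMed1 #4 replicate 2 or NTC replicates 1 or 3, and also with DESeq2, no filter on low counts, upper quartile scaling or library size alone (adjusted p 0.0514 to 0.108 there, 0.0280 to 0.108 over the 18 alternatives).

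Rrp12, which helps export pre-40S particles, rose with shMed1 #2 by 0.33 (adjusted p = 9.61e-06, SE 0.064) and gave 0.12 (adjusted p = 0.154, SE 0.065) with shMed1 #4, although its shMed1 #4 libraries did not overlap the NTC libraries. Utp15, a processome protein needed for rDNA transcription in yeast, rose with shMed1 #2 by 0.22 (adjusted p = 0.00499, SE 0.068). That rise was no longer called without shMed1 #2 replicate 3 or NTC replicate 1 (adjusted p 0.0631 to 0.0886 there, 0.00142 to 0.0886 over the 18 alternatives). The helicase Ddx21, which contacts both rDNA and snoRNAs, rose with shMed1 #2 by 0.14 (adjusted p = 0.00731, SE 0.044), a rise no longer called without NTC replicate 2, and also with library size alone (adjusted p 0.0549 to 0.0897 there, 0.00409 to 0.0897 over the 18 alternatives). With shMed1 #4, Utp15 gave -0.037 (adjusted p = 0.743) and Ddx21 0.00018 (adjusted p = 0.998). Heatr1 (Utp10 in yeast), a processome protein also tied to polymerase I transcription, had 122, 128 and 122 CPM in shMed1 #2 libraries, 106, 117 and 113 CPM in shMed1 #4 libraries, against 124, 129 and 118 CPM in NTC libraries. The shMed1 #4 libraries were the lowest of the 3 groups and overlapped neither of the others. Heatr1 fell by 0.14 on the log2 scale with shMed1 #4 (SE 0.052, adjusted p = 0.0314), and gave 0.0048 (adjusted p = 0.949) with shMed1 #2. Its fall was no longer called without shMed1 #4 replicate 1 or NTC replicates 1 or 2, and also with DESeq2 or no filter on low counts (adjusted p 0.0592 to 0.203 there, 0.0102 to 0.203 over the 18 alternatives). Nop14, Noc4l and the helicase Ddx10 gave 0.021, 0.0083 and 0.17 with shMed1 #2 and 0.076, 0.091 and -0.021 with shMed1 #4, without a call. Ddx10 was called with shMed1 #2 without shMed1 #2 replicate 3 or shMed1 #4 replicate 3 (adjusted p 0.00868 to 0.0492 there, 0.00868 to 0.424 over the 18 alternatives).

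The 60S assembly group held the largest single change, and of its 12 genes 7 rose with shMed1 #2 and 4 with shMed1 #4, with none falling at an adjusted or unadjusted p under 0.05 or with DESeq2. The 58.3% and 33.3% called higher lie beside 35.3% and 22.7% of the abundant genes, of which 21.4% and 16.1% were called lower. Nip7, an RNA-binding factor of pre-60S particles, had 159, 159 and 159 CPM in shMed1 #2 libraries, 119, 134 and 123 CPM in shMed1 #4 libraries, against 112, 118 and 115 CPM in NTC libraries. The shMed1 #2 libraries were nearly identical to each other and above all others, and the shMed1 #4 libraries were also all above the NTC libraries. The log2 fold change of Nip7 was 0.46 (adjusted p = 5.63e-13, SE 0.050) with shMed1 #2, 37.8% higher on the linear scale. With shMed1 #4 it was 0.12 (adjusted p = 0.0609, SE 0.051), a value that was called without shMed1 #4 replicate 1 (adjusted p 0.0307 there, 0.0307 to 0.364 over the 18 alternatives). Rrs1, which helps place the 5S RNP in the pre-60S particle, had 87.9, 95.2 and 98.2 CPM in shMed1 #2 libraries, 89.5, 89.9 and 87.9 CPM in shMed1 #4 libraries, against 76.5, 76.5 and 74.0 CPM in NTC libraries. Libraries of both hairpins were all above NTC and overlapped each other, with log2 fold changes of 0.31 (adjusted p = 4.21e-06, SE 0.057) and 0.24 (adjusted p = 8.28e-04, SE 0.058) for shMed1 #2 and shMed1 #4. Nucleostemin (Gnl3), a nucleolar GTPase, had 176, 195 and 197 CPM in shMed1 #2 libraries, 162, 169 and 160.0 CPM in shMed1 #4 libraries, against 149, 149 and 149 CPM in NTC libraries. No groups overlapped, and Gnl3 rose by 0.35 (adjusted p = 2.45e-09, SE 0.047) with shMed1 #2 and 0.13 (adjusted p = 0.0272, SE 0.048) with shMed1 #4. The shMed1 #4 call of Gnl3 was lost without shMed1 #4 replicate 2 or NTC replicates 1, 2 or 3, and also with DESeq2, upper quartile scaling or library size alone (adjusted p 0.0551 to 0.126 there, 0.0213 to 0.126 over the 18 alternatives).

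Pes1, Bop1 and Wdr12 form the PeBoW complex, which is needed for 28S and 5.8S rRNA maturation, and their calls differed. Pes1 had 149, 161 and 176 CPM in shMed1 #2 libraries, 155, 151 and 149 CPM in shMed1 #4 libraries, against 136, 141 and 138 CPM in NTC libraries. Libraries of both hairpins were above all NTC libraries. Pes1 rose by 0.23 (adjusted p = 8.45e-05, SE 0.050) with shMed1 #2 and by 0.13 (adjusted p = 0.0429, SE 0.050) with shMed1 #4. The shMed1 #4 call of Pes1 was lost without shMed1 #4 replicates 1 or 2 or NTC replicates 1, 2 or 3, and also with DESeq2, no filter on low counts, a stricter filter, upper quartile scaling, library size alone or no robust option (adjusted p 0.0512 to 0.145 there, 0.0348 to 0.145 over the 18 alternatives). Bop1 had 148, 138 and 143 CPM in shMed1 #2 libraries, 164, 153 and 158 CPM in shMed1 #4 libraries, against 133, 138 and 148 CPM in NTC libraries. The shMed1 #4 libraries were above all others and shMed1 #2 overlapped NTC, giving 0.032 (adjusted p = 0.632, SE 0.049) with shMed1 #2 and 0.18 (adjusted p = 0.00266, SE 0.049) with shMed1 #4. Wdr12 had 71.6, 72.3 and 71.3 CPM in shMed1 #2 libraries, 62.8, 56.1 and 57.7 CPM in shMed1 #4 libraries, against 59.5, 59.0 and 57.7 CPM in NTC libraries. For Wdr12 the shMed1 #2 libraries were above all others and shMed1 #4 overlapped NTC, giving 0.29 (adjusted p = 8.30e-05, SE 0.063) with shMed1 #2 and 0.0042 (adjusted p = 0.973, SE 0.065) with shMed1 #4.

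The helicase Ddx18 rose with shMed1 #2 by 0.21 (adjusted p = 2.55e-04, SE 0.050) and gave 0.11 (adjusted p = 0.0987) with shMed1 #4. That value passed without NTC replicate 2 (adjusted p 0.0307 there, 0.0307 to 0.403 over the 18 alternatives). Noc2l, which pairs with Noc3l on pre-60S particles, rose with shMed1 #2 by 0.12 (adjusted p = 0.0180, SE 0.044) and gave 0.081 (adjusted p = 0.169) with shMed1 #4. Its rise was no longer called without shMed1 #2 replicate 2 or NTC replicate 3, and also with upper quartile scaling or library size alone (adjusted p 0.0539 to 0.169 there, 0.0118 to 0.169 over the 18 alternatives). Noc3l itself, the rRNA methyltransferase Nop2, Nop16 and Rrp1b gave no call, with 0.053, 0.075, 0.094 and -0.10 for shMed1 #2 and -0.046, 0.075, 0.026 and -0.050 for shMed1 #4. Rrp1b was called lower with shMed1 #2 without NTC replicate 3, and also with library size alone (adjusted p 0.0344 to 0.0402 there, 0.0344 to 0.723 over the 18 alternatives). Nop16 was the most variable member within a group, with 42.0, 40.1 and 31.9 CPM in shMed1 #2 libraries.

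The most abundant nucleolar proteins went different ways. Nucleolin (Ncl, gene at chr1:86344719-86359400 on the minus strand of GRCm38), which binds rDNA chromatin and nascent rRNA, had 1589.7, 1701 and 1767 CPM in shMed1 #2 libraries, 1492, 1600.1 and 1424 CPM in shMed1 #4 libraries, against 1332, 1297 and 1295 CPM in NTC libraries. All libraries of both hairpins were above all NTC libraries, and the log2 fold changes were 0.37 (adjusted p = 1.47e-12, SE 0.040) with shMed1 #2 and 0.20 (adjusted p = 3.31e-05, SE 0.040) with shMed1 #4. Nucleophosmin (Npm1, chr11:33152287-33163206, minus strand), the histone chaperone of the granular nucleolus, had 1582, 1751 and 1755 CPM in shMed1 #2 libraries, 1386, 1435 and 1348 CPM in shMed1 #4 libraries, against 1669.7, 1578 and 1674 CPM in NTC libraries. The 3 shMed1 #4 libraries were below all others, and shMed1 #2 overlapped NTC. Npm1 fell by 0.24 on the log2 scale with shMed1 #4 (SE 0.039, adjusted p = 6.91e-07), which is 15.3% lower on the linear scale, and gave 0.048 (adjusted p = 0.333, SE 0.039) with shMed1 #2. Mybbp1a, a nucleolar co-repressor that binds MYB, had 836, 835 and 797 CPM in shMed1 #2 libraries, 743, 764 and 735 CPM in shMed1 #4 libraries, against 719, 720.2 and 696 CPM in NTC libraries. Its shMed1 #2 libraries were above all others and its shMed1 #4 libraries above NTC, with log2 fold changes of 0.21 (adjusted p = 4.45e-06, SE 0.039) and 0.071 (adjusted p = 0.175, SE 0.039). The same libraries thus gave a called rise of Ncl and a called fall of Npm1 with shMed1 #4, and both calls held in each of the 18 alternatives run at an adjusted p of 0.05.

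**Figure D3:**
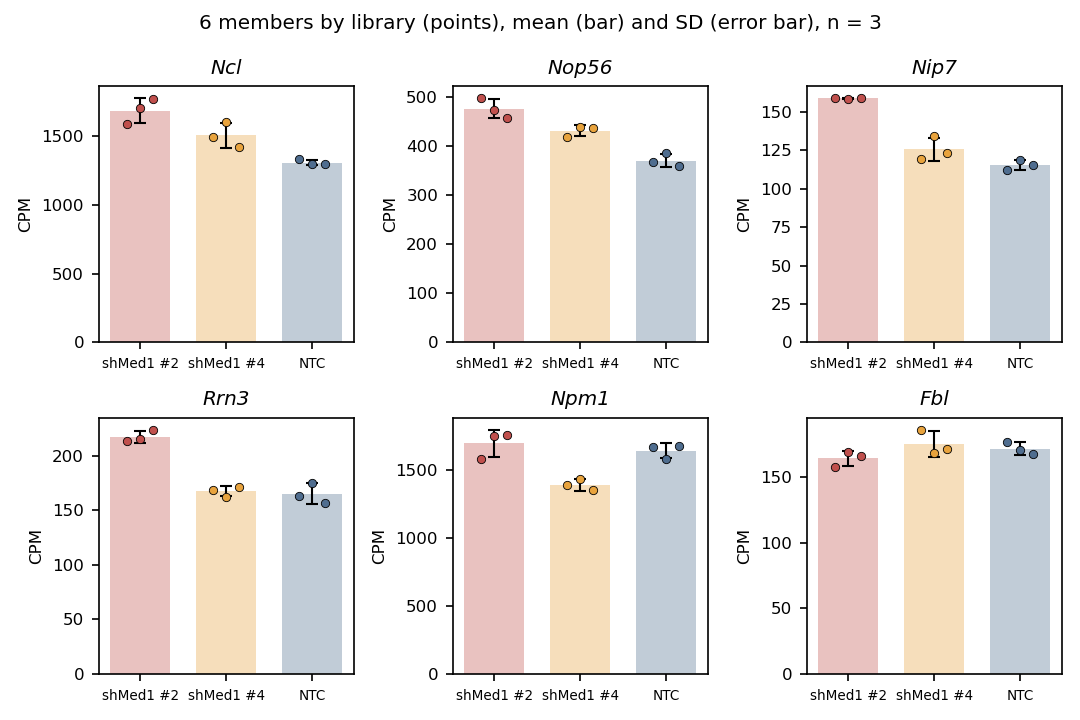
CPM of Ncl, Nop56, Nip7, Rrn3, Npm1 and Fbl in each library (points), with the group mean (bar) and SD (error bar, n = 3), each axis starting at 0. Rrn3 and Nip7 stand apart in shMed1 #2 libraries, Npm1 in shMed1 #4 libraries, and Fbl in neither.

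Compared directly, shMed1 #4 against shMed1 #2, 17 of the 39 genes were lower and 2 higher. Over all genes tested these shares were 13.1% and 12.9%, and over the abundant ones 21.3% and 14.6%. The median log2 difference of the 39 was -0.11, where that over all genes was 0.0083. Lower with shMed1 #4 were Nop56, Nop58, Nolc1, Polr1c, Rrn3, Wdr43, Utp15, Utp20, Heatr1, Rrp12, Ddx21, Wdr12, Nip7, Gnl3, Ncl, Npm1 and Mybbp1a. Rrn3 differed most, by -0.38 (adjusted p = 2.45e-10, SE 0.046), followed by Nip7 with -0.34 (adjusted p = 3.95e-08, SE 0.049). Npm1 followed with -0.29 (adjusted p = 6.50e-09, SE 0.039) and Wdr12 with -0.28 (adjusted p = 2.20e-04, SE 0.063). Between Utp15, at -0.26 (adjusted p = 0.00207, SE 0.068), and Ncl, at -0.16 (adjusted p = 9.04e-04, SE 0.040), lay the called differences of Wdr43, Utp20, Polr1c, Gnl3 and Rrp12. Higher with shMed1 #4 were Dkc1, by 0.18 (adjusted p = 0.00426, SE 0.049), and Bop1, by 0.15 (adjusted p = 0.0160, SE 0.049). The library ranges of shMed1 #4 lay below those of shMed1 #2 for 20 genes and above them for 3, where 18.6% and 18.9% of all genes tested did so. Range shares over the abundant genes were not computed.

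Of the 17 lower calls, 10 held in all 18 alternatives at an adjusted p of 0.05, and of the 2 higher calls the one of Dkc1 did. Leaving out 1 library ended the lower calls of 7 genes. Nop56 lost its call without shMed1 #2 replicate 1 or shMed1 #4 replicate 1 (adjusted p 0.0509 to 0.0654 there, 0.00418 to 0.0654 over the 18 alternatives). Nop58 lost its call without shMed1 #2 replicates 2 or 3 or shMed1 #4 replicates 1 or 3, and also with library size alone (adjusted p 0.0551 to 0.0966 there, 0.0200 to 0.0966 over the 18 alternatives). Nolc1 differed by -0.11 (adjusted p = 0.0413). That call was lost without shMed1 #2 replicates 1, 2 or 3 or shMed1 #4 replicates 1 or 3, and also with DESeq2, no filter on low counts, a stricter filter, upper quartile scaling, library size alone or only the groups compared fitted (adjusted p 0.0508 to 0.241 there, 0.0207 to 0.241 over the 18 alternatives). Polr1c no longer passed without shMed1 #4 replicate 1 (adjusted p 0.0988 there, 0.00362 to 0.0988 over the 18 alternatives). Heatr1 did not pass without shMed1 #2 replicate 2 or shMed1 #4 replicate 1, and also with DESeq2 or library size alone (adjusted p 0.0713 to 0.174 there, 0.0150 to 0.174 over the 18 alternatives). The difference of Rrp12 was no longer called without shMed1 #2 replicate 1 (adjusted p 0.0778 there, 0.00314 to 0.0778 over the 18 alternatives). Ddx21 dropped out without shMed1 #2 replicates 2 or 3 or shMed1 #4 replicate 3 (adjusted p 0.0539 to 0.0768 there, 0.00828 to 0.0768 over the 18 alternatives). The higher call of Bop1 ended without shMed1 #2 replicate 2 or shMed1 #4 replicate 1, and also with DESeq2 (adjusted p 0.0629 to 0.103 there, 0.00456 to 0.103 over the 18 alternatives). Conversely, 5 genes without a call gained one. Gar1 did so without shMed1 #2 replicate 1 (adjusted p 0.0293 there, 0.0293 to 0.579 over the 18 alternatives). Pes1 gained its call without shMed1 #2 replicate 1 (adjusted p 0.0211 there, 0.0211 to 0.703 over the 18 alternatives). Polr1b was called without shMed1 #2 replicate 1 (adjusted p 0.0227 there, 0.0227 to 0.237 over the 18 alternatives), Nhp2 without shMed1 #4 replicate 3 (adjusted p 0.0438 there, 0.0438 to 0.419 over the 18 alternatives). Ddx10 was called without shMed1 #2 replicate 3 or shMed1 #4 replicates 1 or 2 (adjusted p 0.00874 to 0.0409 there, 0.00874 to 0.398 over the 18 alternatives), and also with the replicate number as a block. Fbl and Nop2, with differences of 0.093 (95% interval -0.00099 to 0.19) and 0.00031 (95% interval -0.090 to 0.091), did not pass in the test of the hairpins.

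**Figure D4:**
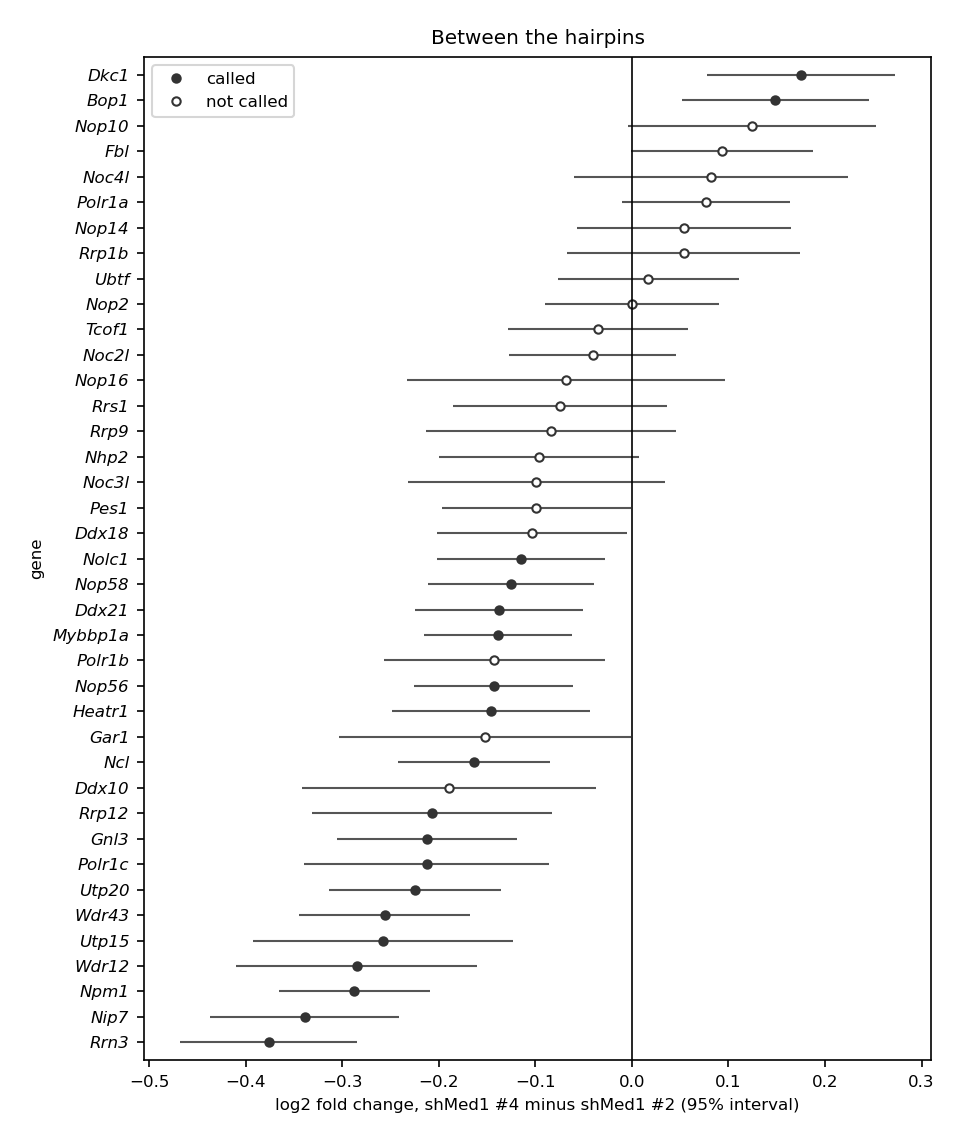
Log2 difference between the hairpins, shMed1 #4 minus shMed1 #2, with its 95% interval for each nucleolar gene, ordered by size; filled points passed an adjusted p of 0.05. Most points lie left of 0, from Rrn3 and Nip7 at the bottom to Dkc1 and Bop1 at the top.

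Levels differ widely between these genes. Per kilobase of merged exons, Npm1 was first in NTC libraries with 616 CPM per kb, followed by Ncl with 128 and Mybbp1a with 123, and Wdr12 was last with 4.91 CPM per kb. This order rests on the annotated length. Per kilobase of the shortest principal transcript, Npm1 was again first with 1004 CPM per kb, Nop56 second with 197 followed by Mybbp1a with 163, while Utp15 was last with 13.3 CPM per kb and Wdr12 had 20.6. Ncl came below Mybbp1a there, with an annotated principal transcript of 8202 bases. Its place depends on that length, and the transcript present in these cells was not measured. Of the 39 genes, 6 span 19 annotated snoRNA genes on their own strand, namely Nop56, Nop58, Dkc1, Wdr43, Gnl3 and Ncl. These snoRNA genes had 0 to 10 counts per library, with 11 of 19 at 0 in every library. Exon bases are shared with a gene of the opposite strand by 15 members, most widely Noc2l with Samd11 over 598 bases, and such reads cannot be told apart here because no source used here states whether counting was stranded.

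Other genes of the pathway, taken from 9 lists that share no gene with the 39, held 272 tested genes. With shMed1 #2, 103 of them rose and 35 fell, and with shMed1 #4, 42 rose and 30 fell (median log2 fold changes 0.090 and 0.036). The shares called over all genes tested were 21.8% higher and 21.9% lower with shMed1 #2, and 14.0% and 14.1% with shMed1 #4. The other small subunit processome and 40S genes had 28 higher and 2 lower of 50 with shMed1 #2 and 10 higher and 1 lower with shMed1 #4. The 56.0% called higher with shMed1 #2 lie beside 35.3% of the abundant genes. With shMed1 #4 the 20.0% called higher are not above the 22.7% of the abundant genes. Medians in this list were 0.16 and 0.077. The largest was Pwp2, a U3-associated processome protein, with 75.6, 87.5 and 86.7 CPM in shMed1 #2 libraries, 75.6, 71.2 and 79.1 CPM in shMed1 #4 libraries, against 41.9, 42.9 and 44.2 CPM in NTC libraries. All libraries of both hairpins were above NTC, and Pwp2 rose by 0.95 (adjusted p = 6.52e-22, SE 0.066) and 0.81 (adjusted p = 2.51e-17, SE 0.068), more than any of the 39. Pno1, the partner of the Nob1 endonuclease in 18S maturation, rose by 0.61 (adjusted p = 8.39e-17, SE 0.054) and 0.29 (adjusted p = 1.35e-05, SE 0.055). The 40S export factor Ltv1 rose by 0.44 (adjusted p = 8.80e-06) and 0.32 (adjusted p = 0.00153). Wdr36 (Utp21 in yeast) rose by 0.39 (adjusted p = 1.92e-12) and 0.24 (adjusted p = 8.27e-06). Of the other 60S assembly genes, 57.1% were called higher with shMed1 #2, beside 35.3% of the abundant genes. With shMed1 #4 it was 21.4%, not above the 22.7% of the abundant genes. These 56 genes had 32 higher and 2 lower with shMed1 #2 and 12 higher and 4 lower with shMed1 #4 (medians 0.20 and 0.083). Among them Rrp8, a nucleolar methyltransferase, rose by 0.38 (adjusted p = 1.57e-07) and 0.36 (adjusted p = 1.86e-06), and Rrp15 by 0.38 (adjusted p = 2.21e-05) and 0.29 (adjusted p = 0.00258). Rpf2 and Tma16 gave 0.46 (adjusted p = 1.61e-08) and 0.46 (adjusted p = 4.33e-07) with shMed1 #2 and 0.24 (adjusted p = 0.00485) and 0.30 (adjusted p = 0.00156) with shMed1 #4. With shMed1 #4, Rpf2 was no longer called without shMed1 #4 replicate 1 (adjusted p 0.0630 there, 0.00327 to 0.0630 over the 18 alternatives). Tma16 was not called without shMed1 #4 replicate 2 (adjusted p 0.0607 there, 1.60e-04 to 0.0607 over the 18 alternatives).

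Of 16 other RNA polymerase I genes, 4 rose and 2 fell with shMed1 #2 and 3 rose and 0 fell with shMed1 #4. The 25.0% called higher with shMed1 #2 and 18.8% with shMed1 #4 are near the 21.8% and 14.0% over all genes tested. They are below the 35.3% and 22.7% over the abundant genes. The count of 0 that fell was 1 at an unadjusted p under 0.05 and 0 with DESeq2. Taf1d, a subunit of the promoter selectivity factor SL1, rose by 0.51 (adjusted p = 3.52e-15) and 0.26 (adjusted p = 2.39e-05). Polr2l, which RNA polymerases I, II and III share, rose by 0.33 (adjusted p = 6.08e-04) and 0.40 (adjusted p = 5.18e-05). The polymerase I subunit Cd3eap rose by 0.28 (adjusted p = 3.14e-04) and 0.23 (adjusted p = 0.00602). The second of these was not called without NTC replicate 3 (adjusted p 0.0577 there, 0.00598 to 0.0577 over the 18 alternatives). Taf1a, another SL1 subunit, gave -0.37 (adjusted p = 0.0335) with shMed1 #2 and -0.32 (adjusted p = 0.0930) with shMed1 #4, and fell on the mean of both hairpins at -0.34 (adjusted p = 0.0220). Taf1a lost its shMed1 #2 call without shMed1 #2 replicate 1 or NTC replicates 1 or 2, and also with DESeq2 (adjusted p 0.0509 to 0.331 there, 0.0111 to 0.331 over the 18 alternatives). On the mean its call was lost without shMed1 #2 replicate 1, shMed1 #4 replicate 1 or NTC replicate 1, and also with DESeq2 (adjusted p 0.0777 to 0.188 there, 0.00858 to 0.188 over the 17 alternatives). Of 13 snoRNP assembly factors, 4 rose and 1 fell with shMed1 #2 and 2 rose and 1 fell with shMed1 #4. The 30.8% and 15.4% called higher lie beside 21.8% and 14.0% over all genes tested, and 35.3% and 22.7% over the abundant ones. Snu13, the box C/D core protein that binds the kink-turn, rose by 0.24 (adjusted p = 2.28e-05) and 0.19 (adjusted p = 0.00131). The snRNA and snoRNA export adaptor Phax rose by 0.44 (adjusted p = 2.09e-06) and 0.36 (adjusted p = 1.53e-04). Pih1d1, a subunit of the R2TP chaperone that assembles box C/D snoRNPs, fell with shMed1 #2 at -0.44 (adjusted p = 1.44e-05) and gave -0.14 (adjusted p = 0.230) with shMed1 #4. The cap hypermethylase Tgs1 gave -0.18 (adjusted p = 0.0818) with shMed1 #2 and fell with shMed1 #4 at -0.32 (adjusted p = 0.00240). The shMed1 #2 value of Tgs1 was called without shMed1 #2 replicate 3, and also with upper quartile scaling or library size alone (adjusted p 0.0101 to 0.0398 there, 0.0101 to 0.410 over the 18 alternatives). Both fell on the mean of both hairpins, Pih1d1 at -0.29 (adjusted p = 8.06e-04) and Tgs1 at -0.25 (adjusted p = 0.00417). For Tgs1 that call was lost without NTC replicate 1 (adjusted p 0.0994 there, 5.42e-04 to 0.0994 over the 17 alternatives).

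The 78 tested cytosolic ribosomal protein genes were split, with 15 higher and 15 lower with shMed1 #2 and 8 higher and 17 lower with shMed1 #4, and medians of -0.0079 and 0.0015. Those are 19.2% higher and 19.2% lower with shMed1 #2, and 10.3% and 21.8% with shMed1 #4. Over all genes tested the shares were 21.8% and 21.9%, and 14.0% and 14.1%. Over the abundant genes they were 35.3% and 21.4%, and 22.7% and 16.1%. Rpl10 gave -0.16 (adjusted p = 6.73e-04) and -0.30 (adjusted p = 2.65e-09), and Rpl34 -0.21 (adjusted p = 5.09e-05) and -0.23 (adjusted p = 1.27e-05), and both fell with each hairpin. Rpl29 rose by 0.22 (adjusted p = 0.00228) and 0.25 (adjusted p = 9.56e-04). Rpl36a rose by 0.35 (adjusted p = 9.31e-10) and 0.15 (adjusted p = 0.00723), and its second call was lost without NTC replicate 2 (adjusted p 0.12 there, 0.00256 to 0.12 over the 18 alternatives). Ribosomal protein genes have many processed pseudogenes, and no source used here states how reads shared with them were counted. Among 22 RNA polymerase III genes, 9 rose and 1 fell with shMed1 #2 and 2 rose and 1 fell with shMed1 #4. Called higher were 40.9% and 9.09%, the second below the 14.0% over all genes tested. The one that fell with each was Maf1, the repressor of polymerase III, with 67.9, 62.1 and 64.9 CPM in shMed1 #2 libraries, 64.6, 60.5 and 70.7 CPM in shMed1 #4 libraries, against 92.8, 96.0 and 98.2 CPM in NTC libraries. No hairpin library reached the lowest NTC library, and the log2 fold changes of Maf1 were -0.56 (adjusted p = 5.29e-13, SE 0.060) and -0.55 (adjusted p = 2.81e-12, SE 0.060). The polymerase III subunit Polr3k rose by 0.25 (adjusted p = 0.00283) and 0.29 (adjusted p = 0.00142). The TFIIIC subunit Gtf3c6 rose by 0.32 (adjusted p = 1.73e-04) and 0.30 (adjusted p = 8.43e-04). Polr3f, another subunit of the enzyme, rose with shMed1 #2 by 0.45 (adjusted p = 5.76e-09) and gave 0.13 (adjusted p = 0.132) with shMed1 #4. Of 14 RNA exosome genes, 9 rose and 3 fell with shMed1 #2 and 5 rose and 1 fell with shMed1 #4 (64.3% and 35.7% higher). The cap subunit Exosc3 fell with both, at -0.25 (adjusted p = 0.00986) and -0.35 (adjusted p = 6.24e-04). Exosc3 lost its shMed1 #2 call without shMed1 #2 replicate 3, and also with DESeq2 (adjusted p 0.0699 to 0.151 there, 0.00198 to 0.151 over the 18 alternatives). Exosc9, a subunit of the core ring, rose by 0.30 (adjusted p = 1.42e-07) and 0.25 (adjusted p = 2.32e-05). C1d and Mphosph6, cofactors of the nuclear exosome, rose with shMed1 #2 by 0.44 (adjusted p = 8.96e-06) and 0.38 (adjusted p = 3.07e-05) and with shMed1 #4 by 0.22 (adjusted p = 0.0461) and 0.20 (adjusted p = 0.0461). The shMed1 #4 call of C1d ended without shMed1 #4 replicate 2 or NTC replicates 1, 2 or 3, and also with DESeq2, no filter on low counts, upper quartile scaling, library size alone or only the groups compared fitted (adjusted p 0.0543 to 0.366 there, 0.0256 to 0.366 over the 18 alternatives). That of Mphosph6 ended without shMed1 #4 replicate 1 or NTC replicates 1, 2 or 3, and also with DESeq2, no filter on low counts, upper quartile scaling, library size alone or only the groups compared fitted (adjusted p 0.0541 to 0.331 there, 0.0309 to 0.331 over the 18 alternatives). With the replicate number as a block Mphosph6 was not called either. Of 12 noncoding snoRNA host genes 2 rose and 2 fell with shMed1 #2 (16.7% each, below the 21.8% and 21.9% over all genes tested) and 0 were called with shMed1 #4. At an unadjusted p under 0.05, 1 of them was higher and 0 lower with shMed1 #4, and DESeq2 called 0. Snhg1 rose with shMed1 #2 by 0.42 (adjusted p = 1.89e-05) and gave 0.11 (adjusted p = 0.390) with shMed1 #4, while Snhg14 fell with shMed1 #2 at -0.42 (adjusted p = 4.74e-04) and gave -0.010 (adjusted p = 0.954) with shMed1 #4.

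The MYC network list went the other way, with 0 of 11 tested genes higher in either comparison, 7 lower with shMed1 #2 and 5 lower with shMed1 #4 (medians -0.27 and -0.21). Called lower were 63.6% and 45.5%, beside 21.9% and 14.1% of all genes tested. The count of 0 was the same at an unadjusted p under 0.05 and with DESeq2. The 7 lower with shMed1 #2 were Myc, Mycl, Max, Mxd1, Mxd4, Mxi1 and Mnt, and all of these but Max and Mxd1 were also lower with shMed1 #4. Max is the shared partner of the MYC proteins and of their antagonists in the MXD family and Mnt. Mxd4, an antagonist, had 11.7, 8.48 and 10.8 CPM in shMed1 #2 libraries, 14.5, 11.8 and 13.1 CPM in shMed1 #4 libraries, against 25.6, 28.8 and 34.0 CPM in NTC libraries. Every hairpin library was below every NTC library, and the log2 fold changes were -1.51 (adjusted p = 1.39e-18, SE 0.12) and -1.16 (adjusted p = 7.89e-14, SE 0.11). Mxi1 and Mnt, repressors of the same family, gave -0.60 (adjusted p = 1.38e-08) and -0.47 (adjusted p = 8.83e-07) with shMed1 #2 and -0.26 (adjusted p = 0.0134) and -0.21 (adjusted p = 0.0342) with shMed1 #4. With shMed1 #4, Mxi1 was not called without shMed1 #4 replicates 1 or 2 or NTC replicate 3, and also with DESeq2 (adjusted p 0.0620 to 0.131 there, 0.00132 to 0.131 over the 18 alternatives). Mnt was not called without shMed1 #4 replicates 1 or 3 or NTC replicates 2 or 3, and also with DESeq2 or no filter on low counts (adjusted p 0.0695 to 0.140 there, 0.0166 to 0.140 over the 18 alternatives). Mycl, a MYC paralogue, gave -0.86 (adjusted p = 3.60e-10) and -0.47 (adjusted p = 2.45e-04). Max, Mxd1 and Myc are named here after their values were seen. Max gave -0.17 (adjusted p = 0.0296) with shMed1 #2 and -0.16 (adjusted p = 0.0578) with shMed1 #4, and Mxd1 gave -0.51 (adjusted p = 0.00939) and -0.37 (adjusted p = 0.0843). The shMed1 #2 call of Max was lost without shMed1 #2 replicates 1 or 3 or NTC replicates 1 or 3, and also with DESeq2 (adjusted p 0.0582 to 0.191 there, 0.00460 to 0.191 over the 18 alternatives). That of Mxd1 was lost without NTC replicate 3, and also with DESeq2 (adjusted p 0.0744 to 0.0756 there, 0.00444 to 0.0756 over the 18 alternatives). Myc itself had 129.8, 122 and 121 CPM in shMed1 #2 libraries, 134, 125 and 127 CPM in shMed1 #4 libraries, against 147, 152 and 152 CPM in NTC libraries. Its hairpin libraries were all below NTC, at log2 fold changes of -0.27 (adjusted p = 2.56e-06, SE 0.049) and -0.22 (adjusted p = 2.35e-04, SE 0.049). Myc and the 6 nucleolar genes with CACGTG were not tested for any relation.

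**Figure D5:**
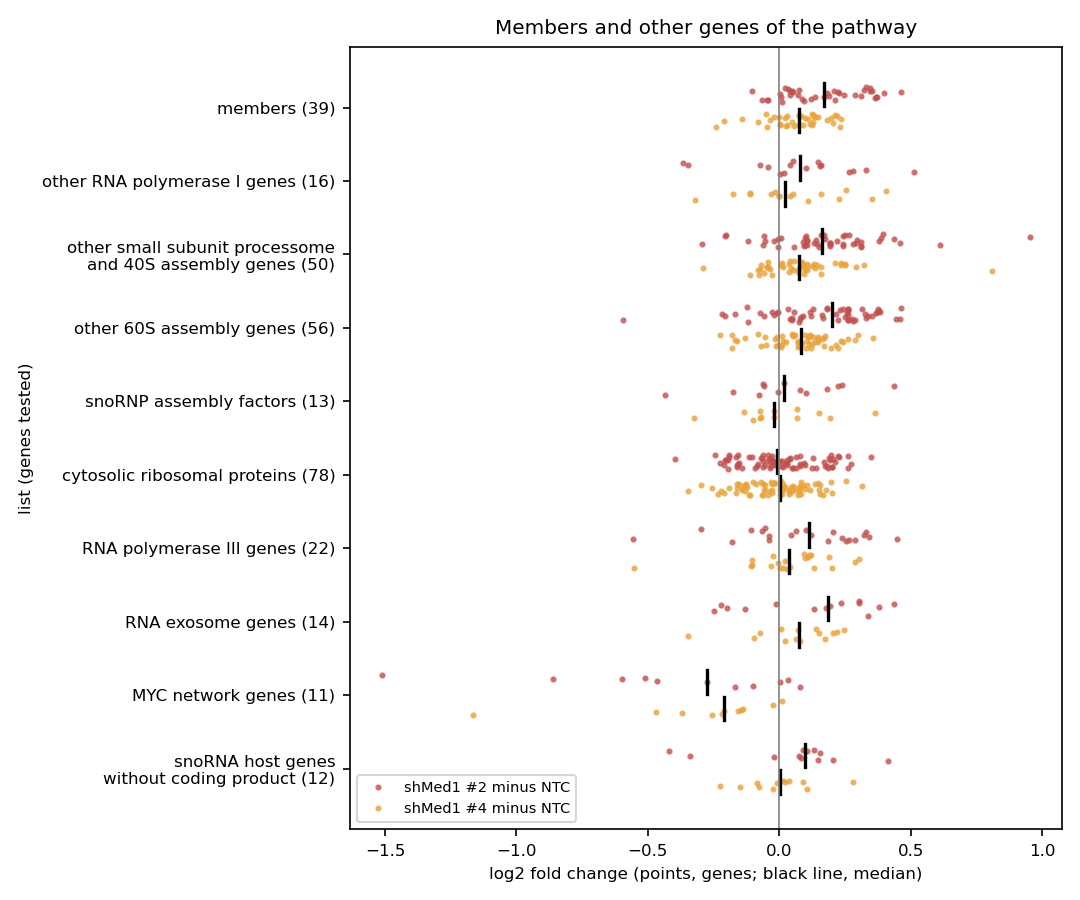
Log2 fold change of each tested gene (points) in the 39 nucleolar genes and in 9 other lists of the pathway, shMed1 #2 minus NTC in red above and shMed1 #4 minus NTC in yellow below, with the list's median as a black line; the number of genes tested is in brackets. Medians lie right of 0 in the processome, 60S and exosome lists, at about 0 in the ribosomal protein list and left of 0 in the MYC network list.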

How the data were processed

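RNA-seq of 9 D2A1-d libraries was analysed. The authors deposited raw counts per gene, 1 file per library; STAR, HTSeq and mouse GRCm38 (mm10) appear in the submitters' processing notes, without versions. Annotation release and strand setting: not given in the sources used here. The files hold 55335 genes, and 0 lines are without a gene. Symbols and positions came from GENCODE M21, which matched 55154 identifiers.

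Genes were kept by filterByExpr, which left 13611, scaled by TMM and tested with edgeR 4.0.16 (R 4.3.3), using the robust quasi-likelihood fit with 1 coefficient per group over all 9 libraries. P-values were Benjamini-Hochberg adjusted over all genes tested, and calls were made below an adjusted p of 0.05. CPM use TMM-scaled library sizes, except marker sums, which use library totals. Intervals are 95%. The common biological coefficient of variation was 3.68%. The fit was also run on simulated counts with known fold changes. Recovery was required there only for folds larger than those of any nucleolar gene described here, so that run does not bear on their calls. All 19 alternatives kept the same contrasts, except that the fit of only the groups compared left out the mean of both hairpins.

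The 39 genes and all lists were chosen with earlier results of these data known. Of each pathway list, up to 4 genes are named: first those called in the same direction with both hairpins, by the size of the mean change, then those called on the mean of both. Libraries within a group were not duplicates (chi-square 1.54 to 2.50 per degree of freedom). Promoters came from RefSeq (GRCm38.p6). No gene on chromosome 18 has its sequence shown.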

Additional observations from a re-analysis of the deposited data

How the results depend on the processing

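Among the 39 nucleolar genes and the named pathway genes, no called direction was reversed under any of the 19 alternatives, and no scaling moved the median of all genes by over 0.1 on the log2 scale. With library size alone that median was -0.052 with shMed1 #2 and -0.024 with shMed1 #4. The medians of the 39 in the main fit were 0.17 and 0.076. Of all calls with shMed1 #2, 39.9% were higher with library size alone, against 49.8% in the main fit. With shMed1 #2 against NTC, the 0 nucleolar genes called lower became 2 with library size alone, and 0 to 1 when 1 library was left out. With shMed1 #4 against NTC, the 13 called higher became 6 at an adjusted p under 0.01, 7 with upper quartile scaling, 7 with library size alone, 7 with DESeq2 and 7 to 13 without 1 library, and the 3 called lower became 1 with DESeq2 and 1 to 3 without 1 library. On the mean of both hairpins, the 1 called lower became 0 at an adjusted p under 0.01, 2 with library size alone and 0 to 1 without 1 library. Between the hairpins, the 2 called higher became 1 at an adjusted p under 0.01, 1 with DESeq2 and 1 to 2 without 1 library. Of the other pathway genes, the 30 called lower with shMed1 #4 became 17 at an adjusted p under 0.01 and 19 with DESeq2, and those between the hairpins went to 9 higher at the stricter threshold, 9 with DESeq2, and 36 lower at the stricter threshold, beside 15 higher and 60 lower. The stricter threshold admits fewer genes by construction, and the cause of the other changes was not tested. Deviations of same-numbered libraries from their group means had correlations of -0.059 to 0.066 between groups. Those of other-numbered libraries were -0.126 to 0.136. The values show no pairing by number, but correlations of this size cannot exclude one, by number or otherwise. With the replicate number as a block, 12 of the 39 rose and 3 fell with shMed1 #4 (Wdr43 was not called, at an adjusted p of 0.0521), 21 rose with shMed1 #2, and 18 were lower and 2 higher between the hairpins.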
